A study of Mus musculus with 6 samples.

Results

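Arterial endothelial cells line the vessels that bring blood into the brain. In the single-cell RNA sequencing (scRNA-seq) data described here they were selected on their own transcripts. A barcode was kept when it held 250 to 6000 detected genes and under 15% mitochondrial unique molecular identifiers (UMIs, 1 for each captured RNA molecule). It counted as endothelial when UMIs were found for at least 4 of *Cldn5*, *Pecam1*, *Flt1*, *Cdh5*, *Itm2a* and *Egfl7* and for at most 1 of *Pdgfrb*, *Kcnj8*, *Acta2*, *P2ry12*, *Cx3cr1* and *Aqp4*, which mark mural cells, microglia and astrocytes. It counted as arterial when UMIs were also found for at least 3 of *Gkn3*, *Bmx*, *Vegfc*, *Sema3g*, *Fbln2*, *Fbln5* and *Igfbp3*. These rules gave 455 arterial cells among 4770 endothelial cells and 25964 filtered barcodes. They were compared with the 3216 endothelial cells in which none of the 7 arterial genes was found, called the comparison cells below. The remaining 1099 endothelial cells, with 1 or 2 of the 7 genes, belonged to neither class.

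The cells came from wild-type C57Bl/6J mice, perfused through the heart, whose tissue was digested with dispase II, papain and DNase I and cleared of myelin on Percoll. One preparation pooled the cerebral cortices of 3 female mice aged 3 weeks and the other the hippocampi of 3 female mice aged 5 weeks, and each pool was loaded into 3 droplet reactions (10x Genomics Chromium), the technical replicates. There was thus 1 biological sample per preparation, and brain region, age and preparation cannot be told apart. The 3 cortical libraries held 91, 77 and 79 arterial cells (247 in all, 2650409 UMIs) and the hippocampal libraries 68, 74 and 66 (208 in all, 2188898 UMIs). Levels are given as CPM, the UMIs of a gene among 1000000 UMIs of the same cells.

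Arterial identity is set early in vessel development by vascular endothelial growth factor and Notch signalling, in which a ligand on one cell triggers cleavage of a receptor on its neighbour, whose freed part acts with RBPJ to switch on Hey and Hes repressors. Along the vascular tree the endothelium then changes gradually from artery to capillary to vein. Large arteries carry elastic fibres and smooth muscle, whereas brain capillaries hold most of the transporters of the blood-brain barrier.

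Of the 2836 cortical endothelial cells, 8.71% ± 0.88 (SD, n = 3 technical replicates) were arterial, and of the 1934 hippocampal ones 10.8% ± 0.38 (SD, n = 3). The exact Clopper-Pearson 95% intervals of the pooled shares were 7.70 to 9.81% and 9.41 to 12.2%, covering counting error only, and they overlapped. Shares by library ran from 7.9% to 9.65% in the cortex and from 10.5% to 11.2% in the hippocampus. With 1 pool per preparation the difference was not tested. A rule that asks for 3 detected genes favours deep cells. The arterial cells held a median of 8962 UMIs in the cortex and 8902.5 in the hippocampus, against 6426 and 6273 in the comparison cells. When each barcode was thinned to 2000 UMIs before the rule was applied, 3.44% ± 0.52 and 4.53% ± 0.31 (SD, n = 3) of the endothelial cells were arterial, so the share moved with depth by more than the spread between replicates. The cells selected without thinning are used below.

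The 7 genes that chose the cells are given as a description, without a test. *Sema3g*, a secreted semaphorin, was found in 402 of 455 cells (88.4%) and *Vegfc*, a growth factor of lymphatic vessels, in 81.8%. *Fbln2*, a matrix glycoprotein, was found in 74.9%, the kinase *Bmx* in 67.3% and *Igfbp3*, which binds insulin-like growth factors, in 62.2%. *Gkn3*, a gastrokine that marks brain arteries, was found in 47.5% and *Fbln5*, which assembles elastic fibres, in 24.2%. In cells of another lineage, 12034 barcodes with at least 3 microglial markers and at most 1 endothelial gene (median 6040 UMIs), each of the 7 was found in 0.0415 to 0.199% of cells. After thinning to 2000 UMIs the share with *Sema3g* was 43.1% in arterial cells and 0.0168% in the microglial barcodes. Since the arterial cells were chosen for these genes, the distance between the shares is set by the rule.

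Between the preparations, *Gkn3* measured 198, 409 and 274 CPM in the cortical libraries and 773, 659.9 and 829.9 CPM in the hippocampal ones. Every hippocampal library lay above every cortical one. *Igfbp3* went the other way, with 666, 714 and 733 CPM in the cortical libraries and 109.7, 134 and 127 CPM in the hippocampal ones, again without overlap. *Bmx*, *Vegfc*, *Fbln2* and *Fbln5* overlapped between the preparations. *Sema3g* was narrowly separated, at 260.4, 253 and 241 CPM against 313, 306 and 317 CPM.

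**Figure D1:**
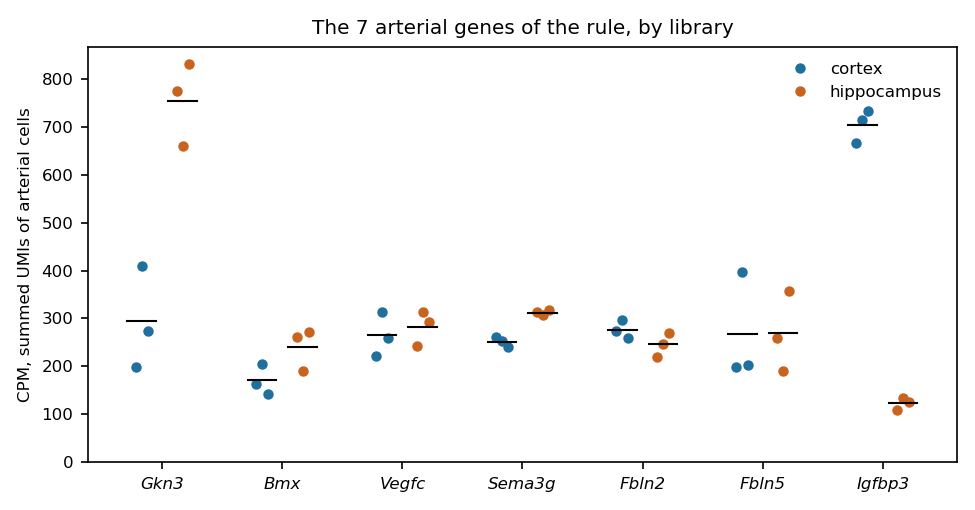
CPM of the 7 genes that chose the cells (x axis) in the arterial cells of each library (points, 3 technical replicates per preparation) with the mean of each preparation (black line). *Gkn3* lay between 198 and 409 CPM in the cortex and between 659.9 and 829.9 CPM in the hippocampus, and *Igfbp3* between 666 and 733 CPM and between 109.7 and 134 CPM.

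The label was checked on 20 arterial genes that the rule did not use, as a description, since the cells were sorted by expression in the same libraries. Among endothelial cells of 3000 to 12000 UMIs, the summed level of these 20 genes was higher at each step in the number of rule genes found. In the cortex it was 2974 ± 102 CPM (SD, n = 3 technical replicates) with none, 4772 ± 162 CPM with 2, 6468 ± 667 CPM with 3, 7199 ± 614 CPM with 4 and 17047 ± 3072 CPM with 5 to 7. In the hippocampus the same steps gave 3086 ± 52.9, 4982 ± 257, 6648 ± 637, 7512 ± 522 and 14778 ± 3579 CPM. The cells just outside the threshold (2 genes, 98 cortical and 100 hippocampal cells of this depth) and just inside it (3 genes, 55 and 60 cells) were thus next to each other in level. Most of the rise of the sum lay between 4 genes and 5 to 7. Over both preparations *Mgp* went from 341 to 5319 CPM in that step and *Eln* from 73.1 to 1146 CPM, so the sum leans on *Mgp*. Other members fell there, among them *Unc5b* (204 to 172 CPM) and *Alox12* (80.0 to 57.9 CPM). Capillary genes fell along the same axis, from 15252 to 6917 CPM in the cortex and from 15101 to 6847 CPM in the hippocampus. Venous genes were lowest in the middle of the scale. They measured 1359, 718 and 1390.3 CPM in cortical cells with 0, 4 and 5 to 7 rule genes, and 1036, 387 and 1438 CPM in hippocampal cells with 0, 2 and 5 to 7. Markers of other cell types, summed here without the rule genes *Acta2* and *Aqp4*, moved along the same axis. Those of vascular smooth muscle went from 30.7 ± 3.17 to 199.6 ± 51.7 CPM in the cortex and from 41.7 ± 3.42 to 210.2 ± 35.5 CPM in the hippocampus. Those of astrocytes measured 563 ± 47.4, 1444 ± 982, 3340 ± 2458, 2288 ± 807 and 1321 ± 212 CPM in cortical cells with 0, 2, 3, 4 and 5 to 7 rule genes, highest just inside the threshold, and 435 ± 107, 873 ± 1016, 1211 ± 833, 354 ± 139 and 745 ± 769 CPM in hippocampal ones (SD, n = 3). Their part in the steps of the arterial genes was not tested.

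**Figure D2:**
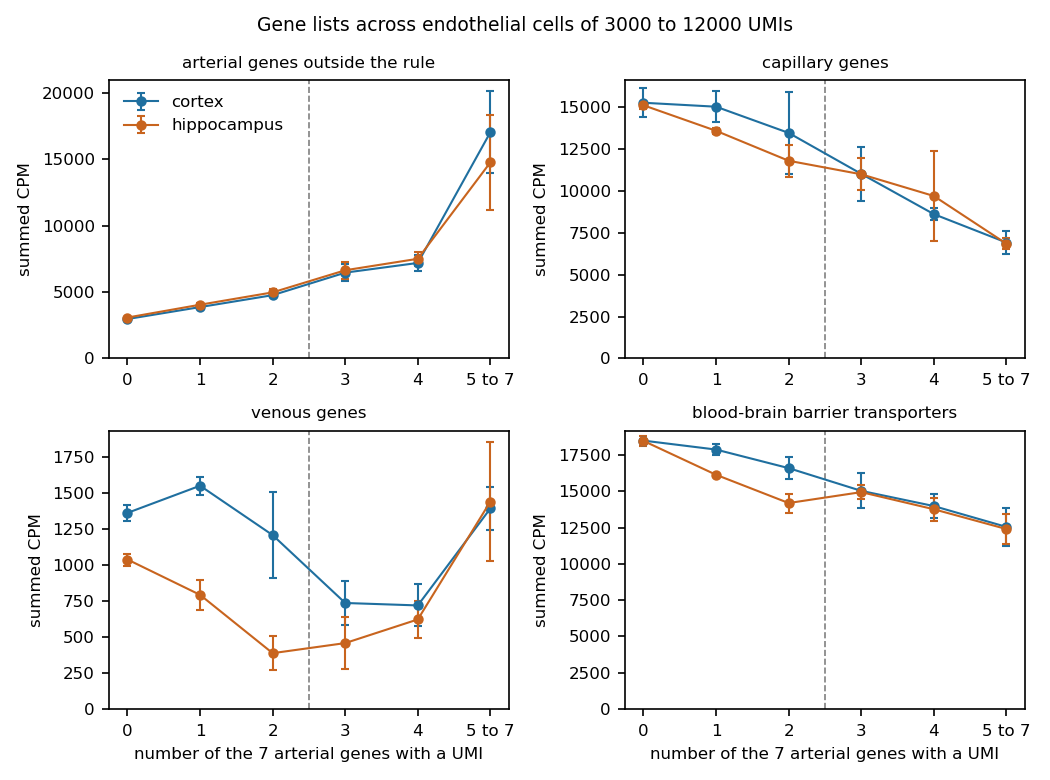
Summed CPM of 4 gene lists (y axes, from 0) in endothelial cells of 3000 to 12000 UMIs, by the number of the 7 arterial genes found (x axis). Points are means and bars SDs of the 3 libraries of a preparation, and the dashed line is the threshold of the rule. Arterial genes outside the rule rose to 17047 and 14778 CPM, while capillary genes fell to 6917 and 6847 CPM.

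Single genes divided the arterial cells further. *Mgp* (matrix Gla protein, an inhibitor of vessel calcification, chromosome 6, 136872435 to 136875823 on GRCm38) was found in 33 of 141 cells with 3 rule genes and in all 40 cells with 7. *Eln*, which encodes elastin, was found in 22 of the cells with 3 and in 38 of the cells with 7. *Gja5* (connexin 40) was found in none of the cells with 3, in 1 of the 107 with 4 and in 25 of the 40 with 7. *Cytl1*, a small secreted protein, was found in 7 cells with 6 and 11 with 7 and in none with fewer. Conversely, *Car4*, a carbonic anhydrase of brain capillaries, was found in 36 of the cells with 3 rule genes and in 3 of those with 7, whereas the monocarboxylate transporter *Slc16a1*, also a capillary gene, was found in 69.5% of the cells with 3, 60.9% of those with 6 and 65% of those with 7. The cells differed in depth as well, from a median of 7817 UMIs with 3 rule genes to 13162.5 with 7, and the share of these counts that depth accounts for was not tested. Within the window of 3000 to 12000 UMIs, *Mgp* still measured 144 CPM in cells with 3 rule genes, 341 CPM with 4 and 5319 CPM with 5 to 7. *Gja4* (connexin 37) was at 46.1 CPM with 3 and reached 104 and 123 CPM. *Unc5b*, a netrin receptor, was highest with the fewest, at 219, 204 and 172 CPM.

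Transcripts of mural cells, fibroblasts, astrocytes and oligodendrocytes were more frequent in the arterial than in the comparison cells when the libraries of a preparation were summed, whereas those of erythroid cells were less frequent in the cortex. The 12 markers of vascular smooth muscle cells (VSMCs) summed to 183, 224 and 757 CPM in the arterial cells of the cortical libraries and 199.8, 177 and 186 CPM in those of the hippocampal libraries. The comparison cells held 332, 31.4 and 32 CPM and 44, 40.0 and 43 CPM, so that in cortical replicate 1 the arterial cells held less. Among the arterial cells cortical replicate 3 stood apart, led by *Acta2* (310.2 CPM), while in the other 5 libraries *Mylk* led and the contractile gene *Cnn1* was at 0. Without that library 4 VSMC markers and 1 fibroblast marker were higher in the edgeR test described next, in place of 7 and 4. Pericyte markers, led by *Rgs5*, summed to 1156, 559.8 and 587 CPM in cortical and 532, 1291 and 602 CPM in hippocampal arterial cells, against 343 and 375 CPM in the comparison cells. Astrocyte markers, led in the arterial cells of both preparations by *Slc1a2* (by *Gja1* in hippocampal replicate 1 and *Mt3* in hippocampal replicate 2), summed to 1551, 1675 and 2276 CPM in cortical and 674, 1273 and 1746 CPM in hippocampal arterial cells, against 681 and 551 CPM. Oligodendrocyte lineage markers were low in the cortex (81.5 against 44.4 CPM, with *Mog*, *Mag*, *Mobp* and *Olig2* at 0 in arterial cells) and reached 2074 against 985 CPM in the hippocampus (2342, 1931 and 1929 CPM by library, against 1635, 174 and 1169.7 CPM). Fibroblast markers summed to 147 against 6.15 CPM in the cortex, with *Dpt* at 0, and cortical replicate 3 again held most of them (309 CPM). Erythroid markers, led by *Hbb-bs*, summed to 17413.5 against 33867 CPM in the cortex and varied from 11.8 to 15765 CPM between the arterial cells and from 8.52 to 6142 CPM between the comparison cells of the hippocampal libraries. Choroid plexus and ependyma markers summed to 45.2, 69.5 and 62.5 CPM in cortical and 279.5, 225 and 284 CPM in hippocampal arterial cells, against 57.8, 52.3 and 169 CPM and 342, 533 and 245 CPM in the comparison cells, so that the libraries of the 2 classes overlapped. Microglial markers were close (161 against 149.6 CPM over all libraries). Scrublet called 21 arterial cells (4.62%) and 103 comparison cells (3.2%) as doublets, 7 of the former in cortical replicate 3 and 6 in hippocampal replicate 3 (8.86% and 9.09% of the arterial cells there), and called doublets were kept. The part of these transcripts in the results was not tested. Several counts, here or below, are also given for arterial and comparison cells with few such UMIs. These cells had under 0.1% of their UMIs from the 5 marker lists of VSMCs, pericytes, fibroblasts, astrocytes and oligodendrocyte lineage. The limit removed 45.7% of the arterial and 18.9% of the comparison cells in the cortex, and 36.1% and 21.2% in the hippocampus. Of the endothelial cells that remained, 6.13% in the cortex and 9.08% in the hippocampus were arterial. A UMI of 1 of the 6 genes of other cell types was found in 124 of 455 arterial and 461 of 3216 comparison cells. The barcodes of 3 arterial cells occurred in another library of the same preparation.

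To see which other genes set arterial cells apart, UMIs were summed by preparation and class, and arterial were compared with comparison cells by edgeR's quasi-likelihood test with preparation as a block, leaving out the 19 genes of the rule. Of 11535 genes tested, 1541 (13.4%) were higher and 1036 (8.98%) lower in arterial cells at an adjusted p under 0.05, or 22.3% in either direction. The median log2 fold change of all genes was 0.00. Since n was 2 pools and the fit had 1 residual degree of freedom, its error is largely borrowed across genes, and the p-values speak for these pools rather than for mice in general. DESeq2 on the same sums called 594 higher and 344 lower. Without preparation in the model 299 genes were higher and 125 lower, and in cells with no UMI of the 6 genes of other cell types 985 were higher.

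The 15 genes with the highest fold change differed in how many arterial cells held them, from 18 cells for *Cytl1* to 252 of 455 for *Stmn2*. *Cytl1* (chromosome 5, 37735519 to 37739820) was found in the fewest, with 30.5, 40.8 and 17.4 CPM in the cortical libraries and 79.7, 37 and 71.9 CPM in the hippocampal ones and no UMI in any comparison cell. Against the limit of 3 UMIs over all comparison cells of a preparation it was at least 149.9-fold higher in the cortex and at least 186-fold higher in the hippocampus. Its 214 UMIs came from 18 arterial cells, and 10 cells held 88.3% of them. *Pi16*, a peptidase inhibitor, measured 31.5, 122 and 20.8 CPM in the cortical libraries and 56.2, 70.2 and 73.5 CPM in the hippocampal ones and at most 0.326 CPM in a comparison library (log2 fold change 9.23 ± 0.33, SE, n = 2 pools, edgeR adjusted p = 2.36e-160). It too came from few cells, 35 in all, as did *Fabp4*, a fatty acid binding protein (19 cells), *Ssu2* (38 cells) and *Hbb-y*, an embryonic beta-globin whose counts may share reads with its paralogues (32 cells). *Fabp4* ranged from 2.61 to 61.1 CPM over the 6 libraries and *Hbb-y* from 3.47 to 61.1 CPM, the widest relative spreads among the 15. *Nos1*, the neuronal nitric oxide synthase, was found in 62 cells at 17.4 to 50.9 CPM, against at most 0.653 CPM in a comparison library (log2 fold change 7.23 ± 0.43, SE).

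*Stmn2*, a microtubule regulator best known from neurons, was found in 252 of 455 arterial cells and in 44 of 3216 comparison cells, at 228, 306 and 228 CPM in the cortical libraries and 503, 327 and 379.8 CPM in the hippocampal ones (log2 fold change 6.46 ± 0.14, SE). The 8 neuronal markers moved with it in the cortex, at 33.6, 7.19 and 16.2 CPM against 5.9, 3.36 and 3 CPM by library, with *Syt1*, *Dcx* and *Tubb3* at 0 in arterial cells, and did not in the hippocampus, at 36.6, 7.66 and 14.1 CPM against 7.5, 22.3 and 192 CPM. Their part in the level of *Stmn2* was not tested. *Tmem100*, a membrane protein downstream of bone morphogenetic protein (BMP) signalling, was found in 232 cells at 249, 304 and 223 CPM in the cortical libraries and 197, 140.4 and 133 CPM in the hippocampal ones (log2 fold change 5.72 ± 0.14, SE). Every cortical library lay above every hippocampal one for *Tmem100*, and all 6 lay above the 8.17 CPM of the highest comparison library. *Col18a1*, the basement membrane collagen that gives rise to endostatin, was found in 195 cells at 82.3 to 162 CPM, against 0.187 to 1.83 CPM in comparison cells (log2 fold change 7.13 ± 0.20, SE). The calcium pump *Atp2b4* (143 cells, 5.57 ± 0.24), the synaptotagmin *Syt15* (134 cells, 6.33 ± 0.26), the phospholipase *Plcg2* (98 cells, 5.64 ± 0.36) and the glycosyltransferase *Gcnt1* (69 cells, 5.58 ± 0.40) are each given with the number of arterial cells that held it and its log2 fold change and SE. *Mgp* was found in 235 cells, but 10 cells held 46.2% of its UMIs, and for *Eln* 10 cells held 64%.

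Among the genes with the lowest fold change were the apelin receptor *Aplnr* and its ligand *Apln*, which mark growing capillaries and their tips. *Aplnr* had 11 UMIs in cortical and none in hippocampal arterial cells, against 61 to 98.9 CPM in the comparison libraries (edgeR adjusted p = 2.37e-102). *Apln* itself differed between the preparations in the comparison cells, at 95.6 CPM in the cortex and 8.8 CPM in the hippocampus, and was at 3.02 and 1.83 CPM in arterial cells. In hippocampal replicate 2 it was not lower in arterial cells (3.83 against 3.23 CPM). *Adm*, which encodes the vasodilator adrenomedullin, fell from 133 to 5.66 CPM in the cortex and from 34.2 to 5.03 CPM in the hippocampus. *Car4* (chromosome 11, 84957786 to 84966044) was at 36.6 to 113 CPM against 1335 to 1496 CPM, without overlap (log2 fold change -4.53 ± 0.15, SE). *Tmsb10*, an actin-binding thymosin, measured 146 to 384 CPM against 2593 to 3797 CPM (log2 fold change -3.71 ± 0.17, SE). The amino acid transporter *Slc38a5* measured 31.7 against 343 CPM in the cortex. *Fgfbp1*, which carries fibroblast growth factors, the protocadherin *Pcdh12*, the cathepsin *Ctsw* and the serine protease *Klk8* were each lower in all 6 libraries, with log2 fold changes of -4.62 ± 0.35, -4.37 ± 0.31, -3.80 ± 0.35 and -3.71 ± 0.24 (SE).

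**Figure D3:**
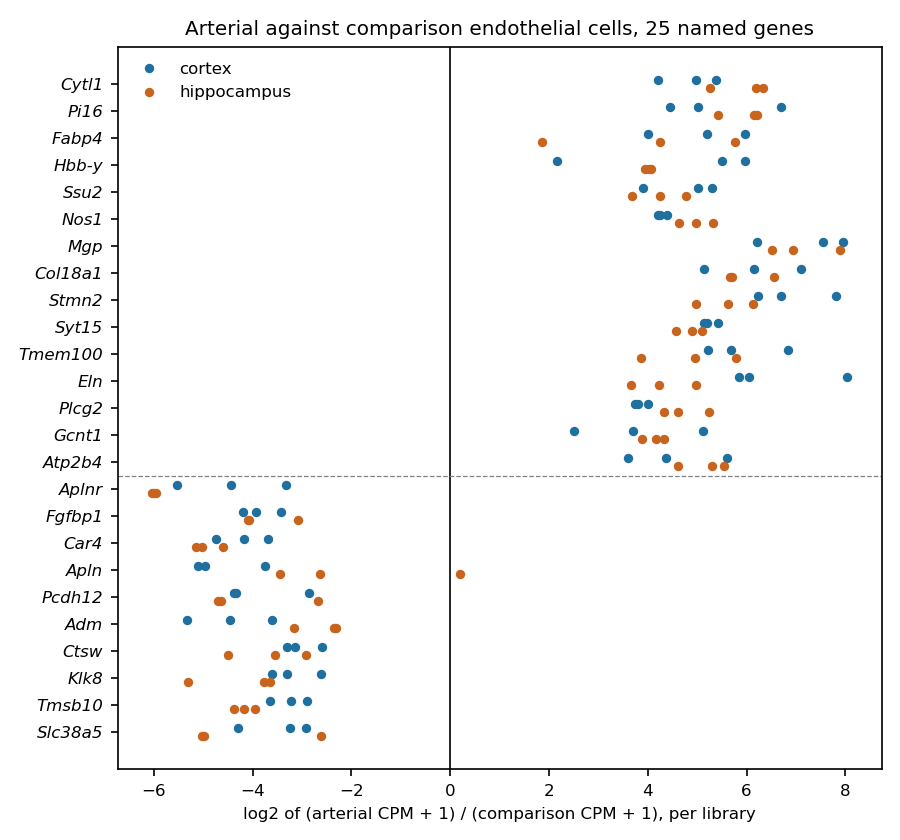
Log2 of the ratio of arterial to comparison CPM, with 1 CPM added to both (x axis), for the 15 genes of the highest and the 10 of the lowest fold change (y axis, ordered by the edgeR fold change), with 1 point per library. All points of the upper 15 genes lie right of 0, and of the lower 10 all but *Apln* in hippocampal replicate 2 lie left of it.

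The arterial genes outside the rule behaved almost uniformly. From here on, a value ± its SE after a gene is the edgeR log2 fold change of arterial over comparison cells (n = 2 pools). Of 20 tested, 19 were higher and 1 lower, with a median log2 fold change of 2.44, beside 13.4% higher and 8.98% lower of all genes. *Tm4sf1*, a tetraspanin-like membrane protein, was at 2743 against 385 CPM in the cortex and 2760.3 against 599.8 CPM in the hippocampus (log2 fold change 2.51 ± 0.15, SE). *Ltbp4*, which binds latent transforming growth factor beta (TGF-beta), was at 1073 against 499 CPM in the cortex and 1118 against 623 CPM in the hippocampus (0.97 ± 0.13, SE). *Sox17*, a transcription factor of arterial endothelium, was at 623 against 261 CPM in the cortex and 627 against 317 CPM in the hippocampus (1.11 ± 0.11, SE). *Gja4* (chromosome 4, 127311421 to 127314039) was found at 113, 119.9 and 97.2 CPM in the cortical libraries and 90.1, 84.2 and 86 CPM in the hippocampal ones, against 2.26 to 4.57 CPM in the comparison cells (4.79 ± 0.17, SE, edgeR adjusted p = 9.5e-175). The groups did not overlap in any library for these 4 genes. *Fn1* (fibronectin) was the exception, at 885 against 1177 CPM in the cortex and 737 against 988 CPM in the hippocampus (-0.43 ± 0.13, SE, edgeR adjusted p = 0.006). Within the window of UMIs used above, *Fn1* was at 1028 CPM with 0 rule genes, 638 CPM with 3, 628 CPM with 4 and 1078 CPM with 5 to 7. Cells with 5 to 7 rule genes were thus not lower than those with none, and these steps were not tested. *Clu*, also in this list, is expressed by astrocytes too, whose markers moved in the same direction, and their part in it was not tested. In cells with under 0.1% of UMIs from markers of VSMCs, pericytes, fibroblasts, astrocytes and oligodendrocytes, 19 of 20 list members were higher, and so they were without any 1 library.

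Genes of the Notch pathway went both ways. Of 23 tested, 11 were higher and 4 lower (median log2 fold change 0.13), beside 13.4% and 8.98% of all genes. All of the ligands tested were higher. *Jag2* was at 333, 346 and 302 CPM in the cortical libraries and 136, 153 and 173 CPM in the hippocampal ones against 42.6 to 105 CPM in comparison cells (1.67 ± 0.11, SE), *Jag1* at 235 against 62.8 CPM in the cortex and 175 against 55.5 CPM in the hippocampus (1.78 ± 0.11, SE) and *Dll4* at 112 against 61.3 CPM in the cortex and 115 against 70.2 CPM in the hippocampus (0.78 ± 0.11, SE). *Dll1* was near the limit of detection, at 8.3 CPM in cortical arterial cells (1.38 ± 0.37, SE). Of the receptors, *Notch1* (0.53 ± 0.10) and *Notch4* (0.89 ± 0.11) were higher, whereas *Notch2* did not pass the test (log2 fold change -0.50 ± 0.27, SE, edgeR adjusted p = 0.207). Of the targets, *Hey1* rose to 289.8 CPM from 54.5 CPM in the cortex and to 208 CPM from 34.7 CPM in the hippocampus (2.47 ± 0.11, SE). The feedback inhibitor *Nrarp* (0.58 ± 0.15), *Heyl* (1.49 ± 0.49), *Hey2* (2.58 ± 0.48) and *Efnb2*, an arterial ephrin (2.40 ± 0.11), were higher as well. *Hes1*, another target, was lower (189 against 299 CPM in the cortex and 186 against 292 CPM in the hippocampus, -0.66 ± 0.11, SE), as were the glycosyltransferases *Mfng* (-0.70 ± 0.12) and *Lfng* (-0.63 ± 0.13), which modify Notch receptors, and the protease *Adam10* (-0.39 ± 0.10), which cleaves them. The transcription factor *Rbpj* (0.08 ± 0.13, edgeR adjusted p = 0.779) and the coactivators *Maml1* and *Maml2* did not pass the test. In cells with under 0.1% of UMIs from other types' markers, 9 members were higher. With 1 library left out at a time, 8 to 11 members were higher. Without hippocampal replicate 1 none of *Dll1* (1.00), *Nrarp* (0.47) and *Heyl* (1.46) passed the test, *Heyl* (1.12) did not pass without cortical replicate 3 either, and it had too few UMIs to be tested without hippocampal replicate 2.

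*Hey2* is one of the targets whose promoter was read. It measured 6.3, 4.79 and 5.79 CPM in the cortical libraries and 2.61, 11.5 and 14.1 CPM in the hippocampal ones, and the comparison libraries held 0.373 to 1.63 CPM (edgeR adjusted p = 8.18e-07). The promoter is printed because TGGGAA, the core of the motif bound by RBPJ, occurs in it at 2 places, shown in capitals, on the strand as printed (TGGGAA) or on the other strand (TTCCCA). The window runs from 250 bases before the transcription start through the first 20 transcribed bases (RefSeq, GRCm38.p6, chr10:30842764-30843033, minus strand, written 5′ to 3′).
Hey2 promoter: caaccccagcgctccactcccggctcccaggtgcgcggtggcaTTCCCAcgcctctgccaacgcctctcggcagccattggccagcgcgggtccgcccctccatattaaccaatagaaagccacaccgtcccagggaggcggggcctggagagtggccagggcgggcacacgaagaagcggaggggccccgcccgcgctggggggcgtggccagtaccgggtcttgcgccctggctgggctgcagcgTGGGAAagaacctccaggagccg
The matches began 207 and 3 bases before the start. Of all 32851 promoter windows of this length, 23.1% held TGGGAA or its complement TTCCCA at least once and 3.17% at least 2 times. Of the 18 Notch genes with a window in the table, 4 (22.2%) held at least 1 match and 3 (16.7%) at least 2, and of the 9 called higher in arterial cells 1 (11.1%), *Hey2*, held any. The 4 were *Hey2*, *Lfng*, which was lower in arterial cells, and *Rbpj*, each with 2 matches, and *Maml2* with 1, and neither *Rbpj* nor *Maml2* was called. The letters were searched on both strands, and a match is no evidence of binding.

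Most of the tested matrix genes of the elastic fibre were higher. Of 20 listed genes 14 had enough UMIs to be tested, and low ones could reach the test through the arterial cells alone. Of the 14, 11 were higher and 1, *Fn1*, lower (median 1.83), beside 13.4% and 8.98% of all genes. The count thus leaves out members that were low in both classes. *Mgp* measured 1861, 2962 and 1271 CPM in the cortical libraries and 2497, 1896 and 2696 CPM in the hippocampal ones, against 5.79 to 26.4 CPM in the comparison cells (7.15 ± 0.18, SE). *Eln* measured 498, 801 and 329.9 CPM in the cortical libraries and 195, 174 and 342 CPM in the hippocampal ones, against 2.05 to 12.9 CPM (5.71 ± 0.14, SE). Neither gene overlapped between the classes in any library. The fibrillin *Fbn1* (6.74 ± 0.56), the proteoglycan *Vcan* (4.08 ± 0.46), the crosslinking enzyme *Lox* (5.14 ± 0.63) and *Ltbp1* (3.86 ± 0.41) were higher at levels of at most 17 CPM in either preparation. Fibroblast markers moved with this list, at 147 against 6.15 CPM in the cortex and 18.3 against 9.02 CPM in the hippocampus, as did VSMC markers, at 383 against 128 CPM and 188 against 42.3 CPM, and the part of either was not tested. In cells of 3000 to 12000 UMIs 7 members were higher, and in cells with under 0.1% of UMIs from other types' markers, or without cortical replicate 3, 8 were.

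Basement membrane genes went both ways. Of 15 tested, 5 were higher and 4 lower (median 0.16), beside 13.4% and 8.98% of all genes. Besides *Col18a1*, the laminin chains *Lama3* (3.68 ± 0.27), *Lama5* (0.52 ± 0.12) and *Lamb2* (0.66 ± 0.10) and the collagen *Col8a1* (3.82 ± 0.40) were higher. The laminin chains *Lama4* (-1.11 ± 0.12) and *Lamb1* (-1.92 ± 0.24) and the nidogens *Nid1* (-1.73 ± 0.12) and *Nid2* (-1.30 ± 0.15) were lower. The main collagens *Col4a1* (0.28 ± 0.13, edgeR adjusted p = 0.097) and *Col4a2* (0.19 ± 0.12, edgeR adjusted p = 0.291) and *Sparc* (-0.14 ± 0.16) did not pass the test.

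Of 20 genes that govern vessel tone, 9 were higher and 1 lower (median 0.47), beside 13.4% and 8.98% of all genes, so that higher calls outnumbered lower ones over all genes too. The endothelins *Edn1* (462 against 203 CPM in the cortex and 637 against 179 CPM in the hippocampus, 1.50 ± 0.11, SE) and *Edn3* (241 against 47.7 CPM in the cortex and 199.6 against 53.5 CPM in the hippocampus, 2.12 ± 0.11, SE), which constrict smooth muscle, rose together. The caveolar protein *Cavin2* (0.59 ± 0.11), the angiotensin converting enzyme *Ace* (3.90 ± 0.19), the calcium channel *Trpv4* (3.67 ± 0.19) and the potassium channels *Kcnj2* (1.06 ± 0.19) and *Kcnn4* (6.97 ± 0.79) were higher. *Nos3*, the endothelial nitric oxide synthase, had a log2 fold change of -0.01 ± 0.10 (SE, edgeR adjusted p = 0.97), and the shear-responsive factor *Klf2* 0.35 ± 0.15 (edgeR adjusted p = 0.0863), while *Klf4* rose (0.73 ± 0.12). Of 7 connexin and myoendothelial junction genes 4 were higher and 2 lower, beside 13.4% and 8.98% of all genes. Higher were *Gja4* and *Gja5* (8.19 ± 0.62), the reductase *Cyb5r3* (1.08 ± 0.10) and *Gja1* (0.53 ± 0.11, also an astrocyte gene). *Gjc1* was lower (-0.76 ± 0.11), as was the alpha-globin *Hba-a1*, also an erythroid marker (-0.62 ± 0.16), which did not pass the test without cortical replicates 2 (-0.43) or 3 (-0.64) or hippocampal replicates 1 (-0.18) or 2 (-0.035). In a list of ligands for mural cells, which also holds a receptor, 7 of 9 members were higher and none lower (median 0.79), against the same shares of all genes. Among the 7 were *Pdgfa* (2.45 ± 0.13), *Pdgfd* (1.06 ± 0.11) and the stem cell factor *Kitl* (0.53 ± 0.12). The sphingosine-1-phosphate receptor *S1pr1* (0.79 ± 0.12), which is not a ligand, was counted among them. *Pdgfb*, the ligand that recruits pericytes, was at 339.9 against 335 CPM in the cortex and 418 against 379 CPM in the hippocampus and did not pass the test (edgeR adjusted p = 0.726).

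In the BMP and TGF-beta pathway 7 of 19 tested genes were higher and 3 lower (median 0.36), beside 13.4% and 8.98% of all genes. The ligands *Tgfb2* (398 against 84.4 CPM in the cortex and 540.5 against 113 CPM in the hippocampus, 2.24 ± 0.11, SE) and *Bmp2* (4.36 ± 0.38), the receptors *Acvrl1* (0.36 ± 0.11) and *Tgfbr2* (0.46 ± 0.10) and the inhibitory Smads *Smad6* (2.23 ± 0.13) and *Smad7* (0.54 ± 0.10) rose, whereas the signal-carrying *Smad1* (-0.69 ± 0.12) and *Smad5* (-0.59 ± 0.13) and the coreceptor *Tgfbr3* (-0.98 ± 0.13) fell. The vascular endothelial growth factor (VEGF), angiopoietin and apelin list had 4 of 17 members higher and 9 lower (median -0.51), beside 13.4% and 8.98% of all genes. The receptors *Kdr* (526 against 783 CPM in the cortex and 351 against 772 CPM in the hippocampus, -0.86 ± 0.12, SE), *Nrp1* (-0.80 ± 0.11), *Nrp2* (-2.30 ± 0.21) and *Flt4* (-0.55 ± 0.12) fell, as did *Dusp6*, a phosphatase that follows growth factor signalling (-0.51 ± 0.11). *Angpt2*, which loosens vessels, was lower (-3.29 ± 0.29), and the angiopoietin receptor *Tek* was higher (0.34 ± 0.11), though it did not pass the test without cortical replicate 3 (0.32). Of the guidance genes, 6 of 19 were higher and 5 lower, beside 13.4% and 8.98% of all genes. Higher were, among others, *Sema3f* (4.74 ± 0.50), *Ephb1* (1.42 ± 0.54), *Efnb2* and *Unc5b* (2.34 ± 0.11), and lower were, among others, *Sema6a* (-1.66 ± 0.11) and *Robo4* (-0.50 ± 0.11). Among endothelial transcription factors 4 of 14 were higher and 3 lower, beside 13.4% and 8.98% of all genes. *Sox18* (0.45 ± 0.12) and *Gata2* (0.89 ± 0.10) rose beside *Sox17* and *Klf4*, and *Ets1* (-0.74 ± 0.11) and *Fli1* (-0.60 ± 0.11) fell, while *Erg* did not pass the test (0.09 ± 0.11, edgeR adjusted p = 0.663).

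Capillary genes were lower in 8 of 12 cases and higher in none (median -1.11), beside 8.98% of all genes lower and 13.4% higher. *Slc16a1* measured 329, 526 and 761 CPM in the cortical libraries and 218, 195 and 194 CPM in the hippocampal ones, against 1065 to 1601 CPM (-2.01 ± 0.13, SE), without overlap. The transferrin receptor *Tfrc* (171 against 637 CPM in the cortex and 96.9 against 502 CPM in the hippocampus, -2.13 ± 0.12, SE) and *Slc7a5*, which carries large neutral amino acids (-2.23 ± 0.12), fell, as did *Slc7a1*, which carries basic ones (-1.28 ± 0.12), and the cell cycle regulator *Rgcc* (-1.12 ± 0.11). *Spock2* (2197 against 2586 CPM in the cortex and 2493 against 3579 CPM in the hippocampus, edgeR adjusted p = 0.0644), *Cxcl12* (-0.17 ± 0.15), *Slco1c1* (-0.07 ± 0.14) and *Abcb1a* (-0.13 ± 0.13) did not pass the test. Venous genes were lower in 6 of 11 cases and higher in 2 (median -0.93), beside 8.98% and 13.4% of all genes, with *Slc38a5*, *Flrt2* (-3.04 ± 0.15) and the venous factor *Nr2f2* (30.2 against 72.8 CPM in the cortex and 14.2 against 63.8 CPM in the hippocampus, -1.62 ± 0.14, SE) among the lower ones. *Lcn2*, which encodes lipocalin 2, was also lower (-1.79 ± 0.31), but its log2 fold change was 0.51 when 2 of the 7 genes sufficed to call a cell arterial. The other way went *Vcam1*, a leukocyte adhesion molecule, at 131, 255 and 273 CPM in the cortical libraries and 309.5, 167 and 245 CPM in the hippocampal ones against 22.4 to 49.7 CPM (2.72 ± 0.11, SE), and *Vwf*, the von Willebrand factor of large vessels, at 294 against 193 CPM in the cortex and 254 against 202 CPM in the hippocampus (0.46 ± 0.10, SE). *Vcam1* did not overlap between the classes, and was found in 136 of 455 arterial cells. Within the window of UMIs used above, *Vwf* was at 161 CPM with 0 rule genes, 139 CPM with 3, 184 CPM with 4 and 388 CPM with 5 to 7. *Vcam1* was at 21.4, 55.5, 38.3 and 441 CPM in the same cells. Most of the rise of both thus lay in cells with 5 to 7 rule genes, and these steps were not tested. Both genes are known from larger vessels in general.

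Of the 28 transporters and receptors of the blood-brain barrier tested, 19 were lower and 4 higher (median -0.70), beside 8.98% and 13.4% of all genes. *Slc22a8*, an organic anion transporter (-1.75 ± 0.12), *Slc39a8*, a zinc and manganese importer (-1.80 ± 0.12), *Slco1a4* (1786 against 2171 CPM in the cortex and 1713 against 2880.2 CPM in the hippocampus, -0.52 ± 0.15, SE), the lipid transporter *Mfsd2a* (-0.52 ± 0.11) and the insulin receptor *Insr* (-0.75 ± 0.11) fell. The glucose transporter *Slc2a1* did not follow them, at 2388 against 1826 CPM in the cortex and 2202 against 1580.0 CPM in the hippocampus (0.43 ± 0.15, SE, edgeR adjusted p = 0.0218, and not passing the test without cortical replicate 3 or hippocampal replicate 1 at 0.42 each or hippocampal replicate 3 at 0.43), nor did the taurine transporter *Slc6a6* at 2258 against 1182 CPM in the cortex and 2672 against 1666 CPM in the hippocampus (0.80 ± 0.15, SE). Both were higher. *Lrp1* was higher too, at 15.5 against 4.06 CPM in the cortex and 10.5 against 5.9 CPM in the hippocampus (1.43 ± 0.30, SE), and in cells with under 0.1% of UMIs from other types' markers its log2 fold change was -0.01. The efflux pumps *Abcb1a* and *Abcc4* did not pass the test, and *Abcg2* was slightly lower (-0.38 ± 0.12). Tight junction genes were lower in 5 of 12 cases and higher in 1 (median -0.29), beside 8.98% of all genes lower and 13.4% higher. The differences were small in *Esam* (-0.51 ± 0.12), *Tjp1* (-0.40 ± 0.11), *Jam2* (-0.32 ± 0.10) and *F11r* (0.33 ± 0.10), the last of which did not pass without cortical replicate 3 (0.28). Wnt pathway genes, which maintain the barrier, were lower in 10 of 20 cases and higher in 1 (median -0.19), beside 8.98% and 13.4% of all genes, and lower in 7 to 9 cases without any 1 library. The target *Apcdd1* (-1.93 ± 0.19), the inhibitor *Notum* (-0.88 ± 0.12), the target *Nkd1* (-0.71 ± 0.11), the factor *Lef1* (232 against 335 CPM in the cortex and 275 against 415 CPM in the hippocampus, -0.57 ± 0.11, SE) and the receptor *Fzd4* (-0.54 ± 0.11) fell, and *Reck*, a coreceptor of Wnt7, was the 1 member that rose (94.7 against 26.4 CPM in the cortex and 103 against 61.6 CPM in the hippocampus, 1.27 ± 0.11, SE). The transcription factor *Foxf2* (-0.27 ± 0.10) and the receptor *Tnfrsf19* (-0.29 ± 0.11) were called lower too. *Foxf2* did not pass without any 1 of the 6 libraries (-0.31 to -0.21), nor *Tnfrsf19* without cortical replicates 2 or 3 or hippocampal replicates 1 or 3 (-0.31 to -0.26). *Axin2* did not pass the test (-0.11 ± 0.11, edgeR adjusted p = 0.599).

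Antigen presentation and Ly6 genes were higher in 8 of 11 cases and lower in none (median 0.47), beside 13.4% and 8.98% of all genes, with *H2-D1* (0.69 ± 0.13), *B2m* (0.47 ± 0.12), *Ly6c1* (0.57 ± 0.18) and *Ly6a* (2917 against 1521 CPM in the cortex and 3997 against 2723 CPM in the hippocampus, 0.74 ± 0.16, SE) among them. H2 and Ly6 genes have close paralogues, so their single values are uncertain. Of the immediate early and heat shock genes 12 of 17 were higher and *Ier3* lower (median 0.58), beside 13.4% and 8.98% of all genes. *Fos* measured 70.4, 141 and 91.4 CPM in the cortical libraries and 324, 186 and 289 CPM in the hippocampal ones, against 27.4 to 59.7 CPM in the comparison cells (1.95 ± 0.11, SE). *Jun* (0.58 ± 0.13), *Ier2* (0.34 ± 0.10, not passing without cortical replicate 2 at 0.28 or hippocampal replicate 1 at 0.32), *Dusp1* (0.96 ± 0.11), *Nr4a1* (2.28 ± 0.14) and *Hspa1a* (1.29 ± 0.10) rose with it. These genes also respond to tissue dissociation, whose part was not tested. Besides *Vcam1*, the adhesion molecules *Icam2* (0.36 ± 0.11), *Podxl* (0.67 ± 0.11) and *F11r* (0.33 ± 0.10) were higher and *Icam1* was lower (-0.93 ± 0.17), 4 and 1 of 8, beside 13.4% and 8.98% of all genes. Of the 13 cell cycle genes, 5 had enough UMIs to be tested. *Cdk1*, the mitotic kinase, was at 3.02 against 21.2 CPM in the cortex and 0.914 against 3.45 CPM in the hippocampus (-2.68 ± 0.40, SE), *Ube2c* was lower (-2.44 ± 0.61) but did not pass without cortical replicate 3 (-1.26) and was at 0.73, the other direction, when 2 of the 7 genes sufficed, and *Pcna* did not pass the test (-0.02 ± 0.16).

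**Figure D4:**
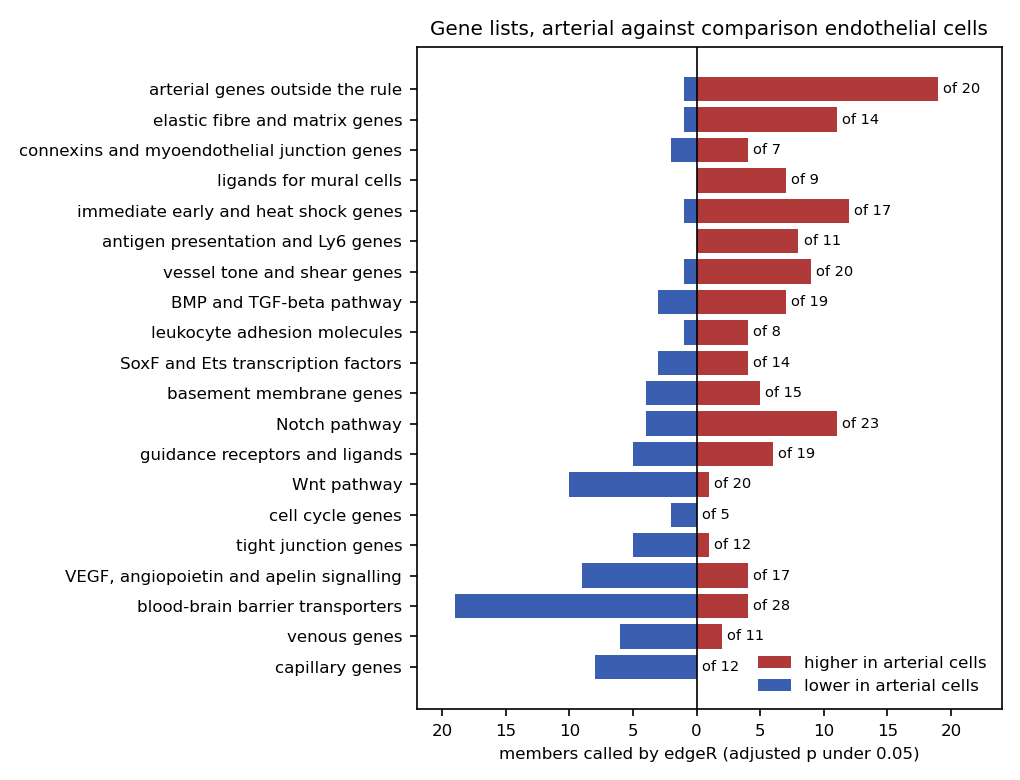
Members of each gene list called higher (right, red) or lower (left, blue) in arterial than in comparison cells by edgeR, out of the number tested given beside each bar, with lists ordered by their median log2 fold change. The arterial list (19 of 20 higher) and the capillary list (8 of 12 lower) stand at the ends.

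Marker lists of other cell types were read in the same test, in which 13.4% of all genes were higher and 8.98% lower. Only members with enough UMIs were tested, for example 8 of 12 for VSMCs, 8 of 10 for pericytes and 4 of 10 for fibroblasts. Low members could reach the test through the arterial cells alone, which favours higher calls, and members low in both classes are left out of the counts. VSMC markers were higher in 7 of 8 cases (*Mylk* 2.44 ± 0.13, *Sncg* 3.34 ± 0.31), pericyte markers in 6 of 8 (3 in cells of 3000 to 12000 UMIs and 1 in cells with no UMI of the 6 genes of other types), astrocyte markers in 10 of 11, oligodendrocyte lineage markers in 9 of 10 (4 without hippocampal replicate 2, 5 in cells with no UMI of the 6 genes, and 1 without called doublets or in cells of 3000 to 12000 UMIs) and fibroblast markers in 4 of 4 (1 without cortical replicate 3, 2 without any 1 of the hippocampal replicates, and 1 in cells of 3000 to 12000 UMIs or with no UMI of the 6 genes). Of the oligodendrocyte lineage markers called higher, *Mog*, *Mag* and *Mobp* had no UMI in cortical arterial cells, whereas cortical comparison cells held UMIs of each. The calls of these genes thus rest on the hippocampus alone. Microglial markers were called in neither direction (0 of 8), nor were those of macrophages and blood immune cells (0 of 3). Erythroid markers were lower in 3 of 5 cases. Their sum in the hippocampus was 4619 against 4089 CPM, and by library 11.8, 17.9 and 15765 CPM in arterial cells against 6142, 5766 and 8.52 CPM in comparison cells, so that its direction there differed between libraries. Of 2 neuronal markers tested *Gad1* was higher and *Meg3* lower, and of 3 markers of choroid plexus and ependyma *Rarres2* was higher and *Ttr* lower. In cells with under 0.1% of UMIs from the VSMC, pericyte, fibroblast, astrocyte and oligodendrocyte lineage markers, the choice of which used those markers, 4 VSMC, 0 pericyte, 2 astrocyte, 0 oligodendrocyte lineage and 0 fibroblast markers were higher. The 25 genes named above for their fold change kept their calls in those cells.

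Hippocampal and cortical arterial cells were compared without a test, since each preparation was 1 pool. A gene counted as past the fold when its level differed at least 2-fold, reached 50 CPM in the higher preparation and its ranges did not overlap between the libraries. Of 3765 genes that reached 50 CPM, 71 (1.89%) were higher and 38 (1.01%) lower in the hippocampus, and the median log2 ratio was 0.07. The rule genes were not left out here, so that *Gkn3* is among the 71 and *Igfbp3* among the 38. By the rule neither has a UMI in the comparison cells. Without called doublets 54 were higher and 59 lower, and in cells of 3000 to 12000 UMIs 73 and 61. With a minimum of 20 CPM in place of 50 the counts were 154 and 72, and with 100 CPM 39 and 20. Many of these genes differed in the comparison cells too. Of the 71, 54 were at least 2-fold higher in hippocampal comparison cells, and of the 38, 21 at least 2-fold lower. By the full rule, with the minimum level and no overlap, 34 and 19 of them were past the fold in the comparison cells. The 2 preparations were counted against gene lists of 31053 and 27998 genes, and the part of annotation in such differences was not tested.

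Myelin genes were among those with the highest ratio. *Mog*, *Mag*, *Mobp* and *Ermn* had no UMI in cortical arterial cells and 74.9, 88.2, 75.4 and 56.6 CPM in hippocampal ones. Against the limit of 3 UMIs over the cortical cells *Mog*, *Mag* and *Mobp* were at least 66.2-, 77.9- and 66.6-fold higher. *Cldn11* was at 177 CPM in hippocampal and 0.377 CPM in cortical arterial cells (log2 ratio 8.88, 95% interval 6.39 to 14.18, exact Poisson, counting error only). In the comparison cells the log2 ratio of *Cldn11* was 9.98. The 10 oligodendrocyte lineage markers also differed in the microglial barcodes, at 1549 CPM in the hippocampus and 98.1 CPM in the cortex. The part of such background in these ratios was not tested. Of the 6 genes with the lowest ratio, *Fbxl7* had 96.2 CPM in cortical and no UMI in hippocampal arterial cells. *Amd2* (log2 ratio -6.01, 95% interval -7.89 to -4.64), *Klf12* (log2 ratio -4.38, 95% interval -5.61 to -3.38), *Ncoa4* (log2 ratio -3.95, 95% interval -4.88 to -3.15) and *Zfp366* (log2 ratio -2.94, 95% interval -3.47 to -2.44) were lower in the comparison cells as well, with log2 ratios of -4.33, -3.77, -3.41 and -3.05. *Col3a1*, a fibrillar collagen, was at 49.4, 65.9 and 47.5 CPM in the cortical and 2.61, 1.28 and 17.2 CPM in the hippocampal libraries, and its log2 ratio in the comparison cells was 0.03. In arterial cells with under 0.1% of UMIs from other types' markers, of which *Col3a1* is one, the log2 ratio of *Col3a1* was 0.37, higher in the hippocampus.

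A few genes differed between the preparations in arterial cells and not, or in the opposite direction, in comparison cells. They were chosen after their values were seen. *Nov*, a matricellular protein, measured 20.0, 44.4 and 64.8 CPM in the cortical and 127, 138 and 92.2 CPM in the hippocampal libraries (log2 ratio 1.51, 95% interval 1.19 to 1.85), against a log2 ratio of -1.28 in the comparison cells. *Cyr61*, of the same family, measured 57.8, 131 and 83.3 CPM in the cortical and 221, 194 and 247 CPM in the hippocampal libraries (log2 ratio 1.30, 95% interval 1.07 to 1.53), against -0.67. *Net1*, a guanine nucleotide exchange factor, was lower (76.7, 110.3 and 55.6 CPM in the cortical and 32.7, 38.3 and 40.6 CPM in the hippocampal libraries, log2 ratio -1.12, 95% interval -1.51 to -0.74), against 0.07, and *Ptprd*, a receptor phosphatase, was higher (18.9, 16.8 and 13.9 CPM in the cortical and 61.4, 58.7 and 57.8 CPM in the hippocampal libraries), against 0.18. *Gkn3* (log2 ratio 1.37) and *Igfbp3* (-2.51) had no ratio in the comparison cells, which by the rule hold no UMI of either. Between the classes these differences were not tested.

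By list, none of 18 arterial genes outside the rule that reached 50 CPM was past the fold (median log2 ratio 0.02). Nor was any of 12 BMP and TGF-beta genes, 13 genes of vessel tone or 16 Wnt genes. Of all 3765 genes 1.89% were higher and 1.01% lower, so a count of 0 in lists of this size is near the share of all genes. *Eln* was at 498, 801 and 329.9 CPM in the cortical and 195, 174 and 342 CPM in the hippocampal libraries, with overlapping libraries. In the Notch list *Jag2* was past the fold, at 333, 346 and 302 CPM in the cortical and 136, 153 and 173 CPM in the hippocampal libraries, and its log2 ratio of -1.10 was matched by -1.05 in the comparison cells. *Slc16a1* was lower (log2 ratio -1.39, 95% interval -1.55 to -1.24, against -0.48 in comparison cells). *H2-K1* (log2 ratio 1.19, 95% interval 1.08 to 1.31, against 1.21) and *Hspa1a* (log2 ratio 1.41, 95% interval 1.24 to 1.58, against 1.62) were higher in both classes. *Fos* was higher by 1.41 in arterial and by 0.53 in comparison cells. *Erg*, the Ets factor, was at 148 CPM in hippocampal and 38.5 CPM in cortical arterial cells, with a log2 ratio of 1.94 in arterial and 2.11 in comparison cells.

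**Figure D5:**
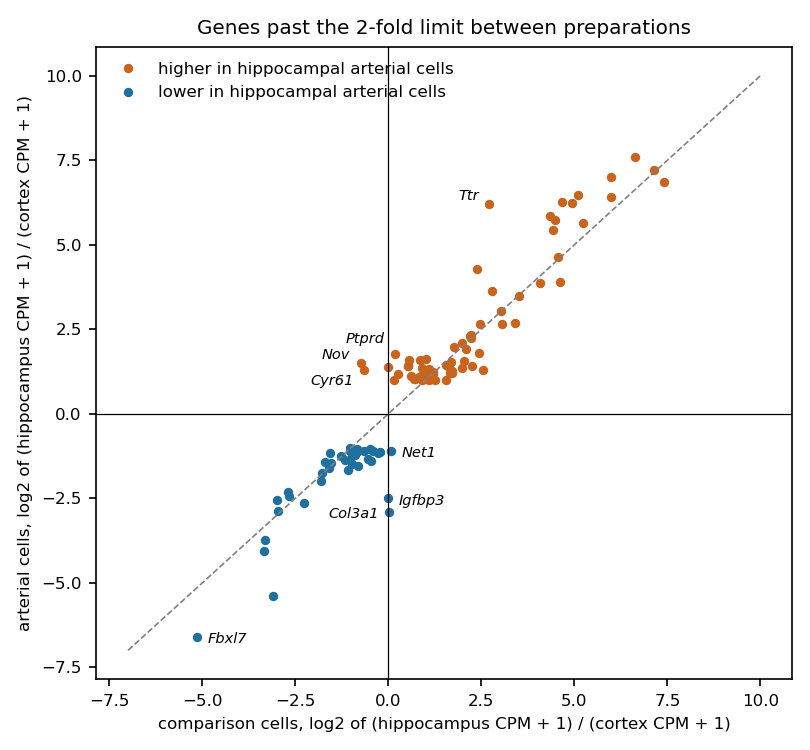
Log2 of the ratio of hippocampal to cortical CPM, with 1 CPM added to both, in comparison cells (x axis) and arterial cells (y axis) for the 71 higher (orange) and 38 lower (blue) genes. Many points lie along the dashed line of equal ratios. *Nov*, *Cyr61*, *Ptprd*, *Col3a1* and *Net1* lie off it, near or left of x = 0 for the higher ones and near x = 0 for the lower ones. *Gkn3* and *Igfbp3* have no UMI in comparison cells by the rule, so their place at x = 0 is set by the selection and is not read.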

How the data were processed

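Droplet scRNA-seq was performed on 6 libraries, 3 technical replicates of each of 2 pools of 3 mice. The authors deposited raw UMI counts per gene and barcode, made with Cell Ranger 5.0.1 and mm10 per their processing notes, and barcodes were already called as cells. The matrix headers name other software versions, and the cortical and hippocampal tables list 31053 and 27998 genes, of which 27514 identifiers are shared. Barcodes were joined over the shared identifiers. A further cortical preparation of the study was not analysed here. Total counts per library ran from 39662203 to 50024850 UMIs.

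The limits of 250 to 6000 genes and of 15% for mitochondrial UMIs kept 25964 of 33273 barcodes, which were then classed by the stated rule, with no clustering. Doublets were called with Scrublet (scanpy 1.11.5) and kept. UMIs were summed by preparation and class into 4 sums and tested with edgeR 4.0.16 (TMM, filterByExpr, quasi-likelihood test with preparation as a block, Benjamini-Hochberg adjustment, threshold 0.05) without the 19 rule genes. The SE is the log2 fold change divided by the root of the F value. The sums are of technical replicates of 1 pool each, so p-values do not cover variation between mice. On data simulated from these sums, 82% of 2-fold and 98% of 4-fold changes were recovered in 11526 genes, and 3.23% of calls were false. The simulation changed only 200 genes and gave every gene the same dispersion (spread beyond counting error). It modelled neither the choice of cells by expression nor genes whose UMIs lie in few cells. Its shares therefore need not hold for the real calls. DESeq2 1.42.0 was an alternative. Shares carry exact Clopper-Pearson 95% intervals and ratios between preparations exact Poisson intervals, both for counting error only. A level of 0 was given the limit of 3 UMIs over all cells of the class in a preparation. Thinning drew 2000 UMIs per cell without replacement. It kept the 450 of 455 arterial and 3042 of 3216 comparison cells that were deep enough.

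Named genes were, of those past the threshold with the same sign in both preparations and at least 20 CPM in either class, the 15 with the highest and the 10 with the lowest log2 fold change. They were also, for each list, the 2 to 4 called members with the highest CPM in arterial cells, the 7 arterial rule genes, and the 6 genes with the highest and the 6 with the lowest ratio between preparations. Some genes that the rule names are not reported here. Other list members were named as examples after their values were seen. The cells, rule and gene lists were chosen with earlier results of these data known. Gene positions are from GENCODE and the promoter from RefSeq, both on GRCm38. Alternatives covered the rule, depth, doublets, other types' transcripts, scaling, filter, tool, block and each library left out.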

Additional observations from a re-analysis of the deposited data

Results flagged for a closer look

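In 4 listed genes, none of them called, every library of one preparation lay on one side and every library of the other on the opposite side. The share of all genes with such a split is not given here, so the 4 are described as single genes only. The laminin chain *Lamc1* had a log2 ratio of arterial to comparison CPM of -0.050 in the cortex and 0.43 in the hippocampus. The semaphorin receptor *Plxna2* had 0.38 in the cortex and -0.27 in the hippocampus. The semaphorin *Sema3c* had 0.11 and -0.43, and the angiopoietin coreceptor *Tie1* 0.25 and -0.22. The difference between the preparations was not tested, since each was 1 pool.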

How the results depend on the processing

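Of 4914 values of 190 called genes under 26 alternatives, 4581 kept direction and call, 330 lost the call and 3 changed direction. *Lcn2* was 0.51 and *Ube2c* 0.73 when 2 of the 7 genes sufficed, and *Lrp1* was -0.010 in cells with under 0.1% of UMIs from other types' markers, an alternative chosen after seeing the data, as was leaving out libraries for the gene lists. In the same cells the log2 ratio of *Col3a1* (hippocampus over cortex) was 0.37. The cause was not tested. The 25 named genes kept their calls in 24 alternatives. DESeq2 lost 1 and the model without a block 4.

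The arterial share depended on the rule and on depth. In the cortex it was 14.4% with at least 2 genes, 5.99% with at least 4, 7.48% with none of the 6 genes of other types, 6.13% with under 0.1% of other types' UMIs, 3.44% after thinning, and 6.91%, 6.45%, 7.37% and 6.84% without *Vegfc*, *Sema3g*, *Fbln2* or *Igfbp3*. In the hippocampus it was 17.3%, 7.45%, 9.59%, 9.08% and 4.53% in the same order, 9.56% in cells of 3000 to 12000 UMIs, and 9.67%, 8.89%, 8.997%, 8.22%, 8.69% and 10.2% without *Gkn3*, *Bmx*, *Vegfc*, *Sema3g*, *Fbln2* or *Igfbp3*. With 1 library left out it ranged from 8.24% to 9.13% and from 10.5% to 10.9%.

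The count of higher genes was 985 with none of the 6 genes of other types and 594 with DESeq2, where 344 were lower. In cells with under 0.1% of UMIs from other types' markers 1109 genes were higher and 809 lower. Lower there were 9 capillary, 19 blood-brain barrier transporter and 7 Wnt pathway genes. Higher were 8 antigen presentation and Ly6 genes and 12 immediate early and heat shock genes. Between the preparations 68 genes were higher and 41 lower in those arterial cells. Preparation served as the replicate block, since both classes came from the same 2 pools. Without the block 299 genes were higher and 125 lower. With 1 library left out, 1130 to 1452 were higher and 738 to 945 lower. In the elastic fibre list 7 members were higher in cells of 3000 to 12000 UMIs. Between the preparations 154 genes were higher at a minimum of 20 CPM and 39 at 100 CPM. Lower were 72 and 20, and 59 without doublets and 61 in the UMI window. With 1 library left out 68 to 82 were higher and 40 to 52 lower. With 1 pool per preparation, no alternative covers variation between mice.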
